A study of Drosophila melanogaster with 3 samples.

Results

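Peaks in coding sequence and 3' UTRs were described for CG17385, a Drosophila melanogaster gene product profiled by chromatin immunoprecipitation sequencing (ChIP-seq) in whole embryos. A peak was counted as exonic when its summit lay more than 500 bp from every start site of a protein-coding transcript and inside a coding sequence (CDS) or a 3' UTR of a protein-coding gene. In the list made from the pooled replicates, 1108 of 30000 peaks (3.69%) met this rule. Of these, 437 lay in CDS and 671 in 3' UTRs. The rule uses positions alone, so the strength of a peak, its presence in each replicate and its sequence did not enter the choice.

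All samples belong to 1 group of 3 biological replicates, so there is no comparison between conditions. They are embryos of mixed sex collected over 0 to 24 h, from a transgenic line in which GFP is fused to the C terminus of CG17385. The line carries the tagged protein in every sample, and signal from a single cell type cannot be told apart in whole embryos. Sonication gave DNA fragments between 200 and 800 bp, per the labels. The labels conflict on 1 point: their free text mentions an input control, but their assay type and antibody target are those of a transcription factor ChIP. The lists are read here as ChIP lists. The replicate numbers are those of the labels. Read numbers per peak are unknown. The 30000, 29999 and 30000 peaks of replicates 1, 2 and 3 on the main chromosomes are a fixed length rather than a depth. Signals are the authors' scores per peak, used here only to rank peaks within a list. The IDR list holds the 7588 peaks that the authors kept after an irreproducible discovery rate step, a method that compares the ranks of peaks between replicates. Among exonic peaks, the list held those of highest pooled signal. Their pooled ranks went up to 7584 inside it and began at 7686 outside it.

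As background, transcription factors are mostly mapped to promoters and enhancers, and the enhancers of flies lie largely in introns and intergenic sequence. Coding exons carry codons and splicing signals, and 3' UTRs carry signals for polyadenylation and RNA stability. A summit in an exon is a position on DNA. It does not show that the RNA or the protein of that gene is involved. Known insulator proteins such as CTCF, and promoter factors such as DREF, which binds the DNA replication-related element (DRE), have short recognition words that can be looked for in the sequence around a summit.

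The sequences that carried the clearest pattern are shown first. They are the 6 strongest CDS peaks and the 6 strongest 3' UTR peaks of the IDR list, on arms 2L, 3L and 3R and chromosome X, that hold the 8-base word AGAAGAAG on either strand within 100 bp of the summit. This word was picked after the sequences of the strongest peaks had been seen, so its shares are a description and were not tested. Capitals mark the word, or its reverse complement where it lies on the other strand. Each stretch has 30 bases of the RefSeq copy of the Release 6 genome (the dm6 assembly), read 5′ to 3′ on the strand of the gene.

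jvl (bristle microtubules), CDS, chr3R:14742346-14742375, plus strand: acgcgcagacaAGAAGAAGcagcagcagta
CG32425, CDS, chr3L:20497941-20497970, plus strand: ggaacatagcaAGAAGAAGcagcagcttca
lap (clathrin adaptor), CDS, chr3R:7187519-7187548, plus strand: cattggcccgaAGAAGAAGcacttggactg
Sam-S (S-adenosylmethionine synthetase), CDS, chr2L:111079-111108, plus strand: atcaaccgcgaAGAAGAAGacgtcggcgct
Cwc25 (spliceosome), CDS, chr2L:2745939-2745968, plus strand: atccaaaaagaAGAAGAAGaaccgacgatc
nop5 (box C/D snoRNP), CDS, chr2L:6916992-6917021, minus strand: gaagaaaaagaAGAAGAAGcagaaggacga
para (sodium channel), 3' UTR, chrX:16456723-16456752, minus strand: aagtgctcagtCTTCTTCTtcttcttgccc
CG12730, 3' UTR, chrX:5518540-5518569, plus strand: ctgcttcttccCTTCTTCTgataactggtt
CanA-14F (calcineurin A), 3' UTR, chrX:16565513-16565542, minus strand: ttccccattcaAGAAGAAGaatgaagaaga
Hex-A (hexokinase), 3' UTR, chrX:9588266-9588295, plus strand: aaagaaaacaaAGAAGAAGaaaaaacacta
Hrb27C (hnRNP), 3' UTR, chr2L:6931491-6931520, plus strand: taaatatgaaaAGAAGAAGaacaggaaacg
e(r), 3' UTR, chrX:8904817-8904846, minus strand: gatgaggaagaAGAAGAAGatgatgatgga

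In the 6 CDS examples the word reads on the coding strand, and in para and CG12730 it lies on the strand opposite to the gene. The second set shows the core of the CTCF recognition sequence, AGGTGGCGC, at the exonic IDR peaks of the same chromosomes. In all 5 of them it appears as GCGCCACCT, which is the core on the strand opposite to the gene. The part given is that of the summit, not of the stretch. The coding piece of the Pde1c summit spans 11816561 to 11816706, so the Pde1c stretch lies past it. The coding piece of the CG10357 summit begins at 3616477, and the core starts just before it.

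Pde1c, CDS, chr2L:11816529-11816558, minus strand: aggggacaattGCGCCACCTggcggccagc
klar, CDS, chr3L:506256-506285, minus strand: tctgcacagcaGCGCCACCTtgggtctggg
CG10357, CDS, chr3L:3616466-3616495, plus strand: tattttactaGCGCCACCTtgtactattat
Hr4, 3' UTR, chrX:2006000-2006029, plus strand: ttcctcagtgGCGCCACCTgtatttagaga
CG9166, 3' UTR, chr3L:1352351-1352380, plus strand: agcgacgctaGCGCCACCTatttctgaaaa

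The 3' UTR peaks of APC7 and CG7872 are among the strongest exonic peaks and hold neither word within 100 bp of the summit. Their 30 bases centred on the summit follow, with no capitals because no motif is marked.

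APC7, 3' UTR, chrX:6599468-6599497, plus strand: caacaatagtcctttatcatccattgtcta
CG7872, 3' UTR, chrX:15579773-15579802, plus strand: ctggtcacaaaaaaagcacgccacattcgc

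Coding sequence was the part of the genome with the fewest summits per base. The pooled list had 23.2 summits per Mb of CDS and 110.2 per Mb of 3' UTR, against 257 in introns, 160 in intergenic sequence and 546 within 500 bp of a start site. CDS away from start sites made up 14.1% of the bases and held 1.46% of the pooled peaks, while 3' UTRs made up 4.55% of the bases and held 2.24% of the peaks. The deficit was larger among strong peaks. Over the 7588 strongest peaks of each replicate, the density was 1.70 ± 0.243 per Mb in CDS and 12.4 ± 0.474 in 3' UTRs, against 51.2 ± 3.13 in introns and 26.2 ± 2.79 in intergenic sequence (SD, n = 3). In every replicate the CDS density lay below the 3' UTR density, which lay below the intergenic one.

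**Figure D1:**
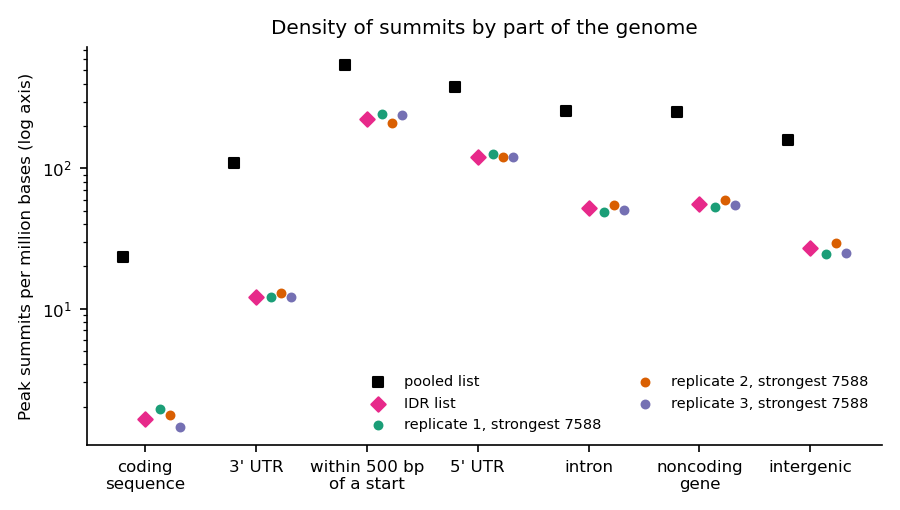
Summits per Mb (vertical, log axis) in each part of the genome, for the pooled list, the IDR list and the 7588 strongest peaks of each replicate. In every list CDS has the lowest density and 3' UTRs the next lowest.

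Few exonic peaks passed the IDR step. Of the 1108, 105 (9.48%, Wilson 95% interval 7.89 to 11.3) were in the IDR list, against 25.3% of all pooled peaks. In CDS the count was 31 of 437 (7.09%, interval 5.04 to 9.89), and in 3' UTRs 74 of 671 (11.0%, interval 8.88 to 13.6). Promoter peaks had a share of 41.6%, intronic peaks 20.3% and intergenic peaks 16.8%. These intervals cover counting error over peaks, which are not replicates. Among exonic peaks the IDR list was the part of highest pooled signal, with ranks up to 7584 inside it and from 7686 outside it. The lower share thus restates a low pooled signal and is not separate evidence on reproducibility.

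Exonic peaks were weak within each replicate. Their share of the 7588 strongest peaks was 1.45% in replicate 1, 1.48% in replicate 2 and 1.33% in replicate 3, against 6.79%, 5.46% and 5.29% of the weaker peaks of the same lists. The share was lower among the strong peaks in 3 of 3 replicates, with a difference of -4.43 ± 0.789 percentage points (SD, n = 3; exact sign-flip permutation test over replicates, two-sided p = 0.25, the smallest that 3 replicates allow). The median signal percentile of exonic peaks, where 100 is the strongest, was 27.6, 31.9 and 29.7 in replicates 1, 2 and 3, and by construction it is 50 for all peaks of a list. The difference from that median was -20.3 ± 2.16 points (SD, n = 3; exact permutation test, p = 0.25). Since 0.25 is the floor, none of these tests could pass a threshold of 0.05.

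CDS peaks ranked below 3' UTR peaks in each replicate. The median percentile in CDS was 23.1, 27.6 and 24.1 in replicates 1, 2 and 3, against 33.7, 36.1 and 35.6 in 3' UTRs. The difference was -10.2 ± 1.58 points (SD, n = 3; exact permutation test, p = 0.25), and every CDS median lay below every 3' UTR median. Intronic peaks had a median percentile of 45.6 ± 0.758. Replicate 1 listed more CDS peaks than the other replicates, 873 against 556 in replicate 2 and 583 in replicate 3, while the 3' UTR counts were 758, 779 and 704.

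The share of exonic peaks climbed step by step down the pooled list. Of the 3000 strongest peaks 1.07% were exonic, and of the 3000 weakest 6.73%. No exonic peak was among the 500 strongest pooled peaks, and 6 were among the 1000 strongest, with 3 in CDS and 3 in 3' UTRs. The best rank of any exonic peak was 394 in replicate 1, 498 in replicate 2 and 634 in replicate 3. A −log10 q of at least 2 was reached by 187 (11.5%) of the exonic peaks of replicate 1, 144 (10.8%) of replicate 2 and 156 (12.1%) of replicate 3, against 35.6%, 29.8% and 33.5% of all peaks of those lists.

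**Figure D2:**
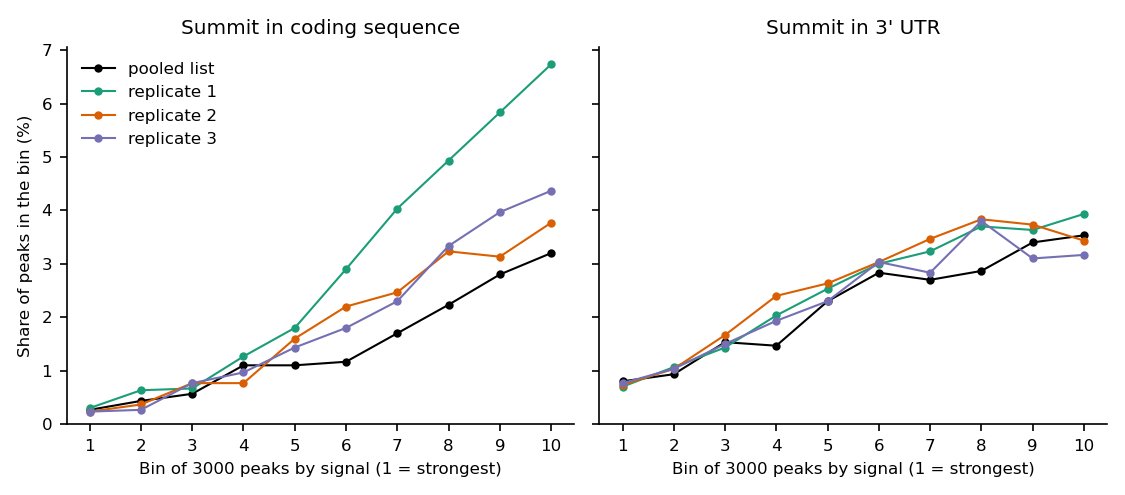
Share of peaks with a summit in CDS (left) or in a 3' UTR (right), in successive bins of 3000 peaks ordered by signal, for the pooled list and each replicate. Both shares are lowest in the strongest bin in all 4 lists, and in the weakest bins replicate 1 has a higher CDS share than the other lists.

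Most exonic peaks outside the IDR list were not found in all replicates, whereas most of the IDR ones were. The exonic IDR peaks are also the strongest by pooled signal. That signal comes from the same replicates, so their recurrence is not independent of it. A summit within 100 bp was present in every replicate list for 200 of the 1108 exonic peaks (18.1%), against 35.7% of all pooled peaks. It was present in exactly 2 lists for 311, in 1 for 459 and in none for 138. Of the 105 exonic IDR peaks, 98 (93.3%) had a summit in every list, against 88.6% of all IDR peaks, and 63 had one among the 7588 strongest of every list, against 62.8% of all IDR peaks. That 60.0% share lies near the background and is no result about exons. Matched replicate summits fell in the same part of the gene in 96.8% of cases for 3' UTR peaks and in 89.8% for CDS peaks, where 41 of 607 matches fell in an intron. Matches lie within 100 bp by rule, and the median distance to an edge of the exon part was 293 bp in 3' UTRs and 75 bp in CDS. Much of this agreement is therefore set by the matching rule.

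Among the 12 strongest CDS peaks of the IDR list, chosen by pooled signal, the first 3 stood well above the rest. At otp, the gene of a homeodomain transcription factor (FBgn0015524), the summit at 2R 20884586 had a pooled signal of 1048 and ranked 965, 498 and 749 in replicates 1, 2 and 3. At Pde1c, a calmodulin-dependent phosphodiesterase gene (FBgn0264815), the summit at 2L 11816576 had a signal of 987.0 and ranked 953, 650 and 808. At jvl, which encodes a microtubule-associated protein (FBgn0263929), the summit at 3R 14742300 had a signal of 917.1 and ranked 687, 1135 and 903. All 3 thus lay inside the 1200 strongest peaks of each list, at opposite ends of their coding sequences. The summits of otp and Pde1c were 91 and 15 coding bases before the end of the CDS, and that of jvl was 122 bases after its start.

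The next CDS peaks had pooled signals between 245.7 and 501.7. They lay in CG32425, l(3)mbn, lap, a clathrin adaptor gene, CG5895, wde, whose product is a cofactor of the histone methyltransferase Eggless, sau, the fly GOLPH3 gene, klar, which encodes a protein linking nuclei and microtubules, Socs36E, an inhibitor of JAK-STAT signalling, and Sam-S, the S-adenosylmethionine synthetase gene. Their ranks were less even between replicates. The summit of sau ranked 1301, 3701 and 7005 in replicates 1, 2 and 3, and that of Socs36E ranked 3601, 15762 and 2252, so it was outside the 7588 strongest of replicate 2. A stronger pooled summit lay within 1000 bp of both sau and Socs36E, and the part of those neighbours in the signal was not tested. The summit of wde had a tighter spread, with ranks 2307, 3152 and 3002.

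The strongest exonic peak of all lay in the 3' UTR of CG1888 (FBgn0033421). Its summit at 2R 9543965 had a pooled signal of 1252 and ranked 394, 746 and 634 in replicates 1, 2 and 3. A second IDR summit of CG1888, with a signal of 520.0, shared its interval and ranked 1472, 14723 and 1634, so the 2 are not separate regions. At APC7, a subunit gene of the anaphase-promoting complex (FBgn0029879), the summit at X 6599483 had a signal of 844.7 and ranked 970, 1080 and 1013. CG7872 (X 15579788) had a signal of 839.0 and ranked 1154, 1002 and 914.

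The following 3' UTR peaks were those of qvr, which encodes a Ly6-type regulator of the Shaker potassium channel, Cals, the calsyntenin gene on chromosome 4, and Cam, the calmodulin gene. The qvr summit had a signal of 794.6 with ranks 913, 1410 and 1090, and the Cam summit a signal of 754.4 with ranks 1292, 892 and 1335. The Cals summit also lies in an annotated 3' UTR of sv, a Pax gene, and had a signal of 774.1 with ranks 1262, 1165 and 992. The 6 remaining named peaks, at stas, CG5984, scf, Hr4, nocte and by, had signals from 533.3 to 712.2. Hr4 encodes a nuclear receptor of the ecdysone response, nocte a protein needed for temperature entrainment of the clock, and by (blistery) the fly tensin. All 12 of these 3' UTR peaks were among the 3000 strongest peaks of each replicate.

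**Figure D3:**
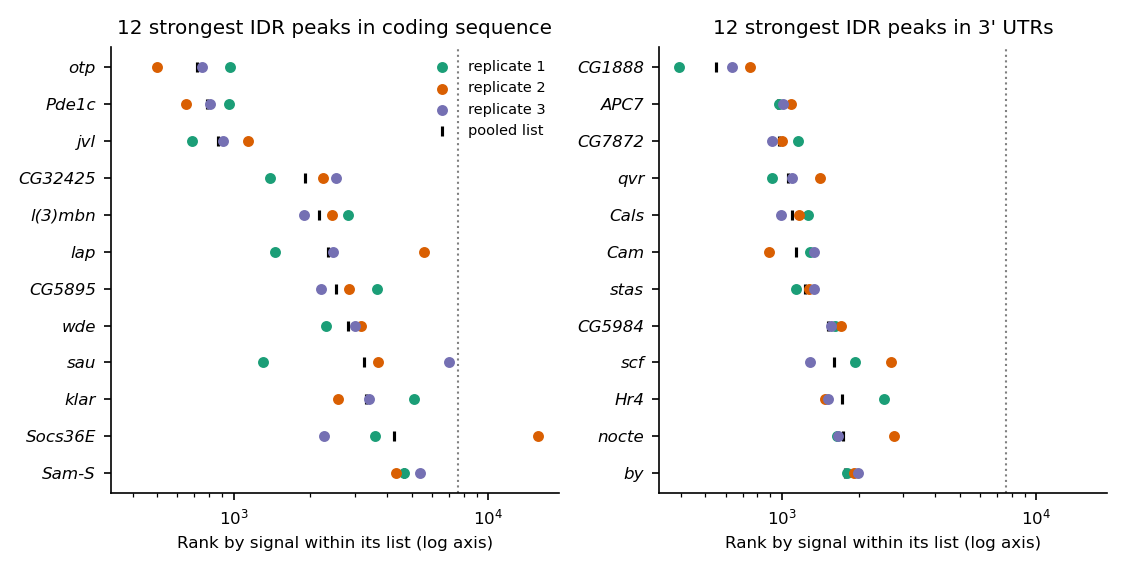
Rank by signal (horizontal, log axis, left is stronger) of the 12 strongest CDS peaks and the 12 strongest 3' UTR peaks of the IDR list in each replicate and in the pooled list. The dotted line is rank 7588, which only Socs36E in replicate 2 exceeds.

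Where a summit falls within the coding sequence was uneven. Of the 437 CDS summits, 74 (16.9%) lay in the first 10% of the CDS and 67 (15.3%) in the last 10%, against 5.14% and 11.1% of windows tiled over all CDS beyond 500 bp of a start site. Among the 31 CDS peaks of the IDR list, 10 were in the first 10% and 6 in the last. A summit lay within 50 bp of an edge of the coding part of its exon in 161 of 437 cases (36.8%), and in 14 of the 31 IDR cases (45.2%), against 20.7% of the tiled windows. The deposited interval was 440 bp wide for each of the 1003 exonic peaks outside the IDR list, a fixed width rather than a measured extent. It lay wholly inside CDS for 95 of the 437 CDS peaks. Most deposited intervals thus reach into neighbouring sequence, and the binding position within them cannot be told apart.

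In 3' UTRs the summits were spread more evenly. The first 10% held 52 of 671 (7.75%) and the last 10% 73 (10.9%), against 9.59% and 10.2% of tiled windows. An exon edge lay within 50 bp of 80 summits (11.9%), against 15.6% of tiled windows. The interval was wholly inside 3' UTR for 408 of 671 peaks, and for 54 of the 74 in the IDR list. A stronger summit lay within 1000 bp of 2 of the 74 (2.70%) and of 6 of the 31 CDS IDR peaks (19.4%), against 15.9% of all IDR peaks.

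Alternative transcripts and overlapping genes touched a minority of exonic peaks. Of the 1108 summits, 183 lay in an intron of another protein-coding transcript, 26 inside an annotated noncoding gene and 14 in exons of more than 1 protein-coding gene. The median distance to the nearest protein-coding start site was 1595 bp for CDS summits and 2291 bp for 3' UTR summits, against 2081 bp for all pooled peaks. The nearest start site belonged to the gene of the exon in 311 of 437 CDS cases and in 298 of 671 3' UTR cases. The 51 bases around the summit occurred at more than 1 place in the main chromosomes for 1 exonic peak. The GC content within 100 bp of the summit averaged 49.2% for CDS peaks and 38.1% for 3' UTR peaks, against 39.6% for all pooled peaks. Tiled CDS windows averaged 54.0% on X and 51.6% on the autosome arms, and tiled 3' UTR windows 35.9% and 36.0%. CDS summits were thus lower in GC than CDS windows, and 3' UTR summits higher than 3' UTR windows.

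At the 500 bp border of the rule, the members nearest to it were weak and the peaks just outside were mixed. Inside lay Fum2, CG17490 and mdy, at 501, 502 and 503 bp from a start site, with signals of 50.5, 51.3 and 56.2. Outside lay COX4L and Brd7-9, both at 500 bp, and Pp2C1 at 499 bp, with signals of 61.0, 180.4 and 339.7, and those of Brd7-9 and Pp2C1 were in the IDR list.

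The word AGAAGAAG was more frequent around exonic summits than in exonic sequence at large. It was found within 100 bp of 119 of 1108 exonic summits (10.7%), against 5.62% of all pooled summits. In the IDR list it was found at 22 of 105 exonic summits (21.0%, Wilson 95% interval 14.3 to 29.7), against 12.3% of all IDR summits. CDS peaks of the IDR list held it in 11 of 31 cases (35.5%, interval 21.1 to 53.1) and 3' UTR peaks in 11 of 74 (14.9%, interval 8.51 to 24.7). All windows of the same length tiled over the same kinds of sequence held it in 2.33% of CDS cases and 1.07% of 3' UTR cases. In windows 1000 bp to either side of the exonic IDR summits its share was 4.29%.

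The word was more frequent at strong than at weak peaks, in exons as in the whole list. Over all pooled peaks its share was 20.4% in the strongest 3000 and 1.73% in the weakest 3000, and over the 7588 strongest peaks of replicates 1, 2 and 3 it was 12.5%, 11.7% and 11.7%. In CDS, the word was found at 33.3%, 45.5% and 37.0% of the summits among the 7588 strongest peaks of replicates 1, 2 and 3 (12 of 36, 15 of 33 and 10 of 27), against 9.20%, 8.03% and 10.6% of the other CDS summits. In 3' UTRs the shares were 14.9%, 15.2% and 14.9%, against 4.68%, 3.71% and 4.60%. The strong and weak values did not overlap in either part, and the strong 3' UTR values lay near those of the whole list. The difference was 29.3 ± 7.10 percentage points in CDS and 10.6 ± 0.724 in 3' UTRs (SD, n = 3). No test is given because the word was picked on these peaks.

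**Figure D4:**
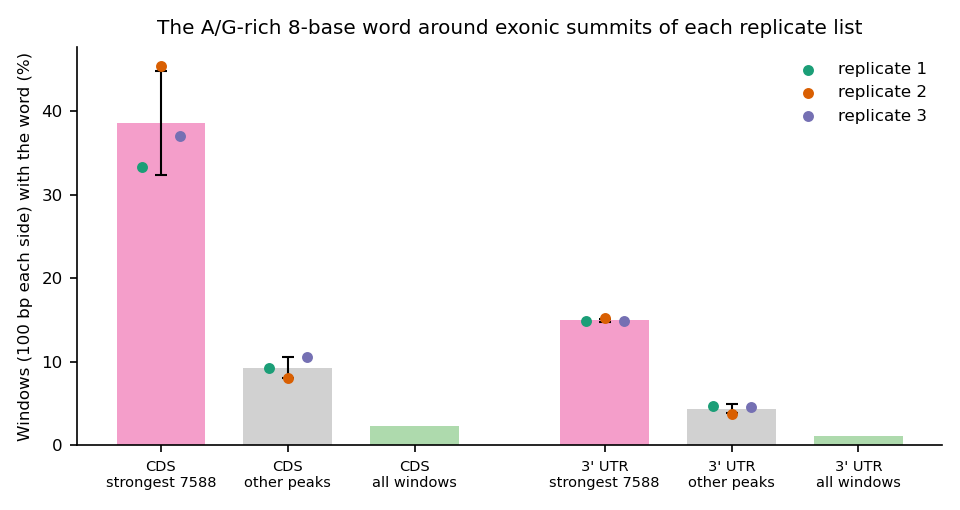
Share of windows, 100 bp to each side of the centre, that hold AGAAGAAG on either strand, around CDS summits and 3' UTR summits of each replicate, split into the 7588 strongest peaks and the others, and in all tiled windows of the same part. Bars are means, error bars are SD over 3 replicates, and the strong peaks lie above the others in every replicate. Strong peaks of the whole list also hold the word, at 11.97 ± 0.423% (not drawn).

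The word lay mostly on the strand of the gene. The median distance from the summit to its nearest match within 100 bp was 28.5 bp among the exonic peaks that held it, and 22.5 bp among those in the IDR list. The search window caps this distance, and no distance in tiled windows is given to set it against. Around CDS summits it read on the coding strand in 61 cases and on the opposite strand in 12. In the IDR list those counts were 10 and 1. Tiled CDS windows also favoured the coding strand, with 1644 against 507, or 1.79% against 0.551% of windows, so a lean to that strand was also present away from summits. For 3' UTR summits the counts were 33 and 13, against 206 and 109 in tiled windows.

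The CTCF core AGGTGGCGC was rare in absolute terms. It was found at 6 of 105 exonic IDR summits (5.71%, Wilson 95% interval 2.64 to 11.9), against 26 of the 7483 other IDR summits (0.347%). It was in 0.304% of tiled CDS windows and 0.0695% of tiled 3' UTR windows, and in none of the windows 1000 bp to either side of these summits. The 6 peaks are those of Pde1c, klar and CG10357 in CDS, and of Cam, Hr4 and CG9166 in 3' UTRs. In windows of 50 bp to each side the core was at 4 of 105 (3.81%), against 16 of the 7483 other IDR summits (0.214%). Those 4 were 3 of 31 in CDS and 1 of 74 in 3' UTRs. Pde1c, Cam and Hr4 are also among the strongest exonic peaks overall.

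In the replicates, the core was found at 4, 4 and 5 exonic summits among the strongest 7588 peaks of replicates 1, 2 and 3. Those shares were 3.64%, 3.57% and 4.95%, against 0.460%, 0.164% and 0.422% of the other exonic summits of the same lists. CG9166 was found in all replicates, but never among the 7588 strongest, with ranks 8048, 16987 and 14856. With the third base of the core left free (AGNTGGCGC, chosen after seeing these matches), otp and Fnta were added, giving 8 of 105 (7.62%), against 1.10% of the other IDR summits. A match of letters does not show that CTCF was bound.

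The DRE word was rare at exonic summits, while the GAGA word was about as frequent in 3' UTRs as over all IDR peaks. The DRE, TATCGATA, was at 2 of all 1108 exonic summits (0.181%), against 1.46% of all pooled summits. In the IDR list it was at 0 of 105 exonic summits (upper Wilson bound 3.53%), against 2.62% of all IDR summits and 5.17% of those at promoters. Motif 1 core, GGTCACAC, a core promoter word, was likewise at 0 of 105, against 1.77% of all IDR summits. Both shares over all IDR summits, 2.62% and 1.77%, lie inside that bound. Tiled CDS windows held the DRE in 0.168% of cases and tiled 3' UTR windows in 0.526%, and at shares of that size 0 of 105 is not distinguishable from the background. The GAGA word, GAGAGAG, was at 6 of 74 IDR summits in 3' UTRs (8.11%), against 7.22% of all IDR summits, 8.10% of those at promoters and 2.49% of tiled 3' UTR windows. In CDS it was at 0 of 31, with an upper Wilson bound of 11.03%.

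Words of RNA signals were about as frequent as in 3' UTRs at large. These words were searched on both strands, so matches on the strand opposite to the gene are counted too. The polyadenylation signal AATAAA was in 33 of 74 windows around 3' UTR IDR summits (44.6%), against 45.5% of tiled 3' UTR windows. The Pumilio site core TGTANATA, searched on both strands, was in 11 of 74 (14.9%), against 16.5% of tiled windows. The tiled values lie within the Wilson 95% intervals of the IDR shares, 33.8 to 55.9% for AATAAA and 8.51 to 24.7% for the Pumilio core.

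The X chromosome held a high share of the 3' UTR peaks. Of the 3' UTR summits among the 7588 strongest peaks, 39.2%, 36.7% and 37.8% lay on X in replicates 1, 2 and 3, against 18.9%, 18.9% and 19.0% of all the 7588 strongest peaks. The difference was 19.0 ± 1.24 percentage points (SD, n = 3; exact permutation test, p = 0.25, the smallest possible). Only counts by chromosome had been planned, so this test was an addition and its p-value is descriptive. X holds 23.3% of the 3' UTR bases beyond 500 bp of a start site. In the IDR list 29 of the 74 3' UTR peaks lay on X.

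Per base, the 3' UTRs of X held more summits than those of the autosome arms. Among the 7588 strongest, the density was 20.5, 20.5 and 19.8 summits per Mb on X in replicates 1, 2 and 3, against 9.62, 10.7 and 9.84 on the autosome arms, and the values did not overlap. Over whole lists it was 149 ± 8.36 on X, against 114.7 ± 7.58 on the autosome arms (SD, n = 3). CDS peaks had the opposite order over whole lists. Their density was 28.2 ± 11.0 on X, against 36.0 ± 9.25 on the autosome arms. X was lower in 3 of 3 replicates, at 40.4 against 46.7, 19.0 against 29.97 and 25.3 against 31.5 per Mb in replicates 1, 2 and 3, although the ranges overlap between replicates. Among the 7588 strongest, X was lower for CDS in replicates 2 and 3 but not in replicate 1. The ratio of X to autosome density over whole lists was 1.30 ± 0.111 for 3' UTRs, 0.768 ± 0.119 for CDS, 1.29 ± 0.130 for 5' UTRs, 1.12 ± 0.0367 for introns and 0.850 ± 0.0591 for intergenic sequence. The X excess over whole lists was thus of like size in 5' UTRs and 3' UTRs. The GC content of 3' UTR windows was 35.9% on X and 36.0% on the autosome arms.

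**Figure D5:**
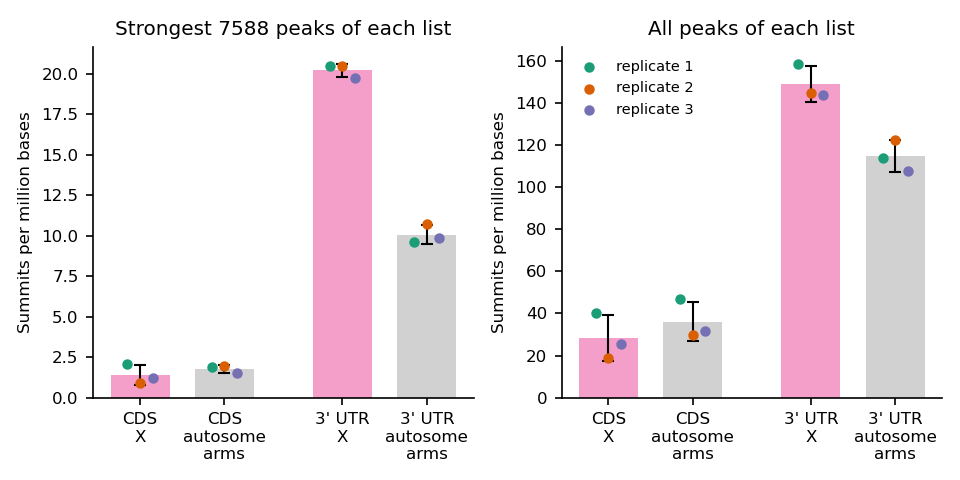
Summits per Mb in CDS and 3' UTRs of the X chromosome and of the autosome arms, for the 7588 strongest peaks (left) and all peaks (right) of each replicate. Bars are means and error bars SD over 3 replicates. The X values of strong 3' UTR peaks lie near 20 and the autosome values near 10.

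Exonic peaks were spread over many genes. They touched 871 of the 13124 protein-coding genes that have CDS or 3' UTR beyond 500 bp of a start site (6.64%), and 103 genes (0.785%) had one in the IDR list. Most of these genes, 701, had 1 exonic peak, 122 had 2 and 27 had 3.

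The gene with the most exonic peaks was ps (pasilla), a splicing regulator gene, which had 8, with 6 in 3' UTR and 1 in the IDR list. The chromatin factor gene corto had 7 and the homeodomain gene hth had 6, with none in the IDR list. CG1888, sgg, the fly GSK-3 gene, Glut4EF and Pdp1, a bZIP factor of the clock, had 5 each, and Cam had 4. Peaks of 1 gene share their exons and are not independent of each other. The strongest of the 8 at ps had a signal of 184.8 and the weakest 43.1.

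Gene groups differed in how often they carried an exonic peak and in how long their exons are, so each count is given with its peaks per Mb of exonic sequence. Most such peaks were weak. Muscle structural genes had one in 8 of 13 cases (61.5%), with 18 peaks at 142 per Mb of exonic sequence, against 6.64% of genes and 43.3 peaks per Mb over all protein-coding genes. None of the 18 was in the IDR list, their pooled ranks ran from 10735 to 27404, and 1 of them had a summit in every replicate. The strongest was in the CDS of Mlc2, a myosin light chain gene (3R 30173772, signal 113.5), with ranks 9240, 10130 and 14988 in replicates 1, 2 and 3. Nuclear receptor genes had one in 6 of 21 cases (28.6%), with 11 peaks at 130 per Mb, led by the Hr4 3' UTR. Hr4 was the only gene of this group with an exonic peak in the IDR list. The pooled ranks of the 11 ran from 1728 to 28973, with a median of 19565, and 1 of them had a summit in every replicate. Ion channel and synaptic genes had one in 5 of 13 (38.5%), but their median exonic length was 10390 bases, against 1261 over all genes, and their density was 77.6 per Mb.

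The ion channel group was led by para, the voltage-gated sodium channel gene, whose 3' UTR summit at X 16456749 had a signal of 483.7 and ranked 1606, 1999 and 2822. Hsp27 was the single heat shock gene of 19 with an exonic peak, at 34.7 per Mb for that group (3L 9384866, signal 343.6, ranks 3032, 2534 and 4076). Axon guidance and adhesion genes had one in 3 of 21 cases (14.3%), yet with a median exonic length of 7639 bases their density was 14.8 peaks per Mb, below the 43.3 of all genes. NetB, a netrin gene, led them (X 14689271, signal 432.8, ranks 2409, 2771 and 2420). The peaks of para, Hsp27 and NetB were in the IDR list and among the 7588 strongest of every replicate.

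Among chromatin and insulator genes 2 of 19 (10.5%) had an exonic peak, at 48.4 per Mb, and the strongest was in the CDS of Su(z)2, a Polycomb group gene (signal 198.3, ranks 5585, 6252 and 6460). Hex-A, the hexokinase gene, led the 2 of 11 glycolytic genes (18.2%; 4 peaks, 216 per Mb) that had one (X 9588260, signal 238.6, ranks 3803, 5809 and 6047). Of the 4 glycolytic peaks, 2 had a summit in every replicate and 2, both of Ald1, in none. The Su(z)2 peak and the strongest Hex-A peak were in the IDR list.

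The remaining groups had no exonic peak in the IDR list. Cytoplasmic ribosomal protein genes had one in the pooled list in 5 of 86 cases (5.81%, against 6.64% of all genes). Their exons are short, with a median of 558.5 bases, and the 7 peaks came to 139 per Mb, against 43.3 over all genes. They were led by the 3' UTR of RpS26 (signal 151.9, ranks 8161, 7801 and 14991). Cuticle protein genes had one in 4 of 68 cases (5.88%), at 109 per Mb, led by Cpr65Au (signal 61.2). Chemosensory receptor genes had one in 2 of 179 (1.12%), at 10.7 per Mb, led by Gr89a (signal 54.0). Gr89a was found in replicate 1 alone, at rank 12158. Hox genes had one in 3 of 8 (37.5%; 114 per Mb), at Antp, abd-A and lab, of which Antp was the strongest (signal 69.1) and was found in replicate 2 alone, at rank 9100. The peaks of abd-A and lab were found in no replicate. None of the 15 gap and pair-rule genes and none of the 11 Enhancer of split complex genes had an exonic peak. Their exonic sequence came to 27767 and 4831 bases. At the 43.3 peaks per Mb of all genes, so little sequence would hold few peaks, and these absences are no result about the groups.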

How the data were processed

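The deposited files are peak lists on dm6 per the labels, one for each of 3 replicates, one for the pooled replicates and one after IDR. Per the labels, the 3 replicate lists draw on the alignment of their own replicate and on 1 common control file, not analysed here, so they are not fully independent. Aligner, peak caller and IDR threshold: not given in the sources used here. Each peak has a signal score that the authors deposited on an unstated scale. The authors deposited a −log10 q-value per peak as well, and the p-value column held no p-values. The offset to the summit was deposited by the authors in bp. No column of other samples was present (0).

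Summits (start plus offset, printed 1-based) on 6 main chromosomes were placed with the Ensembl release 115 annotation, and sequence came from the RefSeq copy of Release 6, with Python 3.11.15, pandas 2.3.3, numpy 2.4.6 and scipy 1.17.1. A summit in CDS and 3' UTR of different transcripts was counted as CDS. Ranks were taken within each list, and summits matched within 100 bp. Nothing in the labels says how the biological replicates were raised, so p-values measure the spread between these samples. Tests are two-sided exact sign-flip permutation tests over 3 replicates, and the placing and matching steps were tested on simulated data.

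The exonic peaks, the 13 gene lists and the 13 motifs were chosen with earlier results of these data known, and 2 further words were added later. Named peaks are the 12 strongest of each part in the IDR list, up to 8 genes with 4 or more exonic peaks, the strongest peak of each gene list and the 3 peaks on each side of the 500 bp border. Sequences were chosen among IDR peaks that hold a word, after their values were seen. Alternatives were other distances from start sites, all annotated start sites, no summit in an intron, other definitions of strong peaks, other matching distances, leaving out each replicate and motif windows of 50 bp to each side.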

Additional observations from a re-analysis of the deposited data

How the results depend on the processing

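A direction could reverse only for the signal differences tested over replicates, and none did in their 12, 8 and 8 settings. Shares and counts have no direction, and could only stay within a set range or leave it. Of all 55 alternatives, 46 stayed on the same side or within the range set for their result. The difference in the share on X was not varied. The lower share of exonic peaks among strong peaks was negative in all 12 settings, and ran from -4.66 to -3.97 percentage points when each replicate was left out. The lower percentile of exonic peaks ran from -21.3 to -19.2 points, and that of CDS against 3' UTR peaks from -11.0 to -9.47 points, without each replicate (2 replicates allow no exact p under 0.5).

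The share of exonic peaks found in every replicate list depended on the matching. It was 11.4% with summits matched within 50 bp and 24.0% within 200 bp, against 18.1% within 100 bp, and 23.1% to 31.9% when 1 replicate was left out, which asks for fewer matches. The count of exonic IDR peaks among the strongest of every list was 98 instead of 63 when any rank was accepted, and 69 to 72 when 1 replicate was left out. The share in the IDR list was 76.6% when exonic peaks that overlap no IDR peak were left out, which removes most others by construction, and 9.76% when, in a version chosen after seeing the data, peaks outside the IDR list that overlap an IDR peak were left out. Within 50 bp of the summit the GAGA word was at 1.90% of exonic IDR summits and the polyadenylation signal at 19.0%, against 5.71% and 37.1% within 100 bp, as shorter windows hold fewer words.

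The tests already compare values within each replicate, and with 1 group there is no replicate block between groups to fit. The reads behind each peak are unknown, so depth limits cannot be given, and the 31 CDS peaks in the IDR list leave wide intervals on every share.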

Other observations

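The other words searched, each on both strands within 100 bp of the summit, stood as follows at the 105 exonic IDR peaks. The E-box CANNTG, bound by basic helix-loop-helix factors, was at 62 (59.0%), against 59.5% of all IDR peaks, and the GATA factor word AGATAA was at 16 (15.2%), against 13.9%. The BEAF-32 word CGATA, a word of an insulator protein that overlaps the DRE, was at 23 (21.9%), against 25.5%. The Zelda word CAGGTAG, known from the activation of the zygotic genome, was at 1 (0.952%), against 1.00%, and a CA repeat was at 3 (2.86%), against 3.22%. All 5 of these shares over all IDR peaks lie inside the Wilson 95% intervals of the exonic shares.

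The TATA box word TATAAA was at 19 of the 105 (18.1%, Wilson 95% interval 11.9 to 26.5), against 32.4% of all IDR peaks. Sequence of the same kinds differed widely in this word, which was in 6.90% of tiled CDS windows and 34.8% of tiled 3' UTR windows. The initiator word TCAGTT was at 10 (9.52%, interval 5.26 to 16.6), against 13.2% of all IDR peaks.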
